A study of Mus musculus with 13 samples.

Results

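The acinar identity transcription factors examined here are the 6 genes Ptf1a, Rbpjl, Bhlha15, Nr5a2, Gata4 and Gata6, chosen by name and matched by Entrez ID, and all 6 are among the 23366 genes of the expression table. Their RNA was measured by sequencing of whole pancreas from 13 female mice, 1 library per mouse. All mice belonged to the reprogrammable strain i4F-B, in which a ubiquitous cassette of Oct4, Sox2, Klf4 and Myc (OSKM), inserted in the Pparg gene, is switched on by doxycycline. The 4 young mice were 13 weeks old and the 5 old mice 55 weeks old, and neither group received doxycycline. The 4 old-OSKM mice received doxycycline for 7 days from the age of 55 weeks and recovered for 2 weeks, so their labels give 58 weeks as the age at sampling, where the series' design text gives 55. Doxycycline and the factors it induces cannot be told apart in this design. Levels are log2 RPKM (a read density scaled to transcript length and to library size), so they can be set side by side between genes, and a difference of 1 is a change by a factor of 2.

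Acinar cells make up most of the pancreas and secrete digestive enzymes. Their identity is held by a small network of DNA-binding proteins. Ptf1a, a basic helix-loop-helix factor, forms the PTF1 complex with a ubiquitous E protein and with either Rbpj, the effector of Notch signaling, or Rbpjl, its pancreas-restricted paralog that takes over in mature acinar cells. Bhlha15, also called Mist1, sets up the secretory apparatus of acinar cells. Nr5a2, an orphan nuclear receptor, activates enzyme genes together with PTF1, and Gata4 and Gata6 are zinc finger factors needed for the formation and upkeep of the exocrine pancreas.

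RefSeq promoter sequences on GRCm38.p6, the same assembly as mm10, were at hand for 4 of the 6 factors, in 5 windows of 250 bases before a transcription start. Those of Ptf1a and Bhlha15, and of Rbpjl the stretches with matches, are shown because they bear the recognition words of the network itself to very different degrees. Capitals mark matches on either strand to CANNTG (the E-box of helix-loop-helix factors), TGGGAA (the core word of RBP-J type factors), AGATAA (the word of zinc finger factors such as Gata4) and TCAAGGT (an NR5A2 word), and the first 2 of these together make up a PTF1 site.
Rbpjl, chr2:164403090-164403117, plus strand: TGGGAAgcctaCATCTGcccagCAGGTG
Rbpjl, chr2:164403156-164403168, plus strand: ACCTTGAAGATAA
Ptf1a, chr2:19445413-19445662, plus strand: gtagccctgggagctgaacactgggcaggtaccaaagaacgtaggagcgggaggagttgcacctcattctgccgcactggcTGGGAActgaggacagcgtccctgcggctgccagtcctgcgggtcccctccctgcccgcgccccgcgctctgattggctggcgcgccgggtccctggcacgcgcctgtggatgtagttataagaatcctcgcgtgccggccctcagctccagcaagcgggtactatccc
Bhlha15, chr5:144190036-144190285, plus strand: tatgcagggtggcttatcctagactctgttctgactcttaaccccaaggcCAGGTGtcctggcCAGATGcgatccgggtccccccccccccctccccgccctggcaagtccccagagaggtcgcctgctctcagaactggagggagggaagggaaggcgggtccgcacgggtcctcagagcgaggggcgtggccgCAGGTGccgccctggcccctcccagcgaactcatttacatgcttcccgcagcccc
The Rbpjl window, chr2:164402944-164403193, precedes the start given in the promoter table, but another annotated Rbpjl transcript begins at 164403081, so its last 113 bases, which hold all matches, lie inside the gene span. In this window, TGGGAA at -104 to -99 from the start is followed after 5 bases by the E-box CATCTG. A second E-box, CAGGTG, lies at -82 to -77, and an NR5A2 word (ACCTTGA on this strand) at -38 to -32 abuts the GATA word at -31 to -26 without overlap. All 4 words were found in 16 of the 32851 promoter windows of the same length (0.049%). An E-box within 24 bases of TGGGAA was found in 4.91%, while single words were common, with CANNTG in 66.2%, TGGGAA in 21.6%, AGATAA in 9.99% and TCAAGGT in 2.97%. The Ptf1a window held 1 TGGGAA and no E-box, and the Bhlha15 window held 3 E-boxes and none of the other words. Nr5a2 has 2 annotated starts in the table, and the upstream window held 2 E-boxes and 2 GATA words while the downstream one held 3 E-boxes. These are matches of letters, not sites of binding.

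All 6 factors were well expressed. Of the 23366 genes, 36.0% had a mean log2 level above 0, and all 6 factors lay above 0 in all 13 mice. The order by mean level was Bhlha15 (3.67, at percentile 98.7 of all genes), Rbpjl (3.09, 97.7), Ptf1a (2.71, 96.5), Nr5a2 (2.68, 96.4), Gata4 (2.24, 94.1) and Gata6 (1.33, 84.5). Bhlha15 was above Rbpjl in 12 of 13 mice, with a within-mouse log2 difference of 0.58 ± 0.34 (SD, n = 13). Rbpjl was above Ptf1a in 11 of 13 mice, but their difference of 0.39 ± 0.69 (SD, n = 13) was within its spread. Ptf1a and Nr5a2 did not differ beyond their spread either, at 0.03 ± 0.48 (SD, n = 13) with Ptf1a the higher in 8 of 13 mice. Nr5a2 exceeded Gata4, by 0.43 ± 0.29 (SD, n = 13), and Gata4 exceeded Gata6, in all 13 mice. The last step was the most even of all, a within-mouse log2 difference of 0.91 ± 0.13 (SD, n = 13), with group means of 0.92, 0.92 and 0.89 and group SDs of 0.16, 0.11 and 0.16 for the young, old and old-OSKM mice.

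One library stood apart and touches every statement on old-OSKM mice. The 3 groups share 1 estimate of the spread, so this library also enters the intervals and p-values between old and young mice. Among the 8410 genes with a mean log2 level above 0, old-OSKM mouse 4 held the highest or lowest value of all 13 mice in 60.1%, compared with 7.17% to 19.3% in the other mice. It also held an extreme in 5 of the 6 factors, the highest Rbpjl and Nr5a2 and the lowest Ptf1a, Gata4 and Gata6, a share to be read against that 60.1%. For 17 marker lists of cell types, states and neighboring organs, RPKM was summed over the genes and given as log2. The highest genes weigh most in such a sum. This library held the highest in 8: duct, beta cell, alpha and delta cell, fibroblast and stellate, mesothelial, endothelial, smooth muscle and erythroid markers. By the mean log2 level of the genes, smooth muscle markers were instead higher in young mouse 4 (-0.51) than in old-OSKM mouse 4 (-0.78). For the 6 endothelial markers the log2 of the summed RPKM was 4.47 in old-OSKM mouse 4, 3.43 to 4.16 in young and 3.29 to 3.59 in old mice. For the 7 fibroblast and stellate markers it was 6.19, compared with 4.75 to 5.75 in young and 4.33 to 4.70 in old mice. Old-OSKM mouse 1 held the highest sums of 6 other lists, those of macrophages, T cells, B and plasma cells, adipocytes, proliferation and acinar to duct metaplasia. Liver markers were highest in young mouse 3, at 6.45 against 2.43 to 3.49 in the other mice, and stomach and intestine markers in old mouse 3, at 0.55. For the 8 acinar markers, which include the enzymes Cpa1, Ctrb1 and Amy2a5, the log2 of the summed RPKM was between 13.19 and 13.29. This held in all 13 mice, and these genes lie at the top of the table. Quantile normalization nearly fixes values there, so this sum shows that the markers were present and not that their amount was stable. The part of these markers in the levels of the factors was not tested. In whole tissue, fewer acinar cells and less RNA per acinar cell cannot be told apart.

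**Figure D1:**
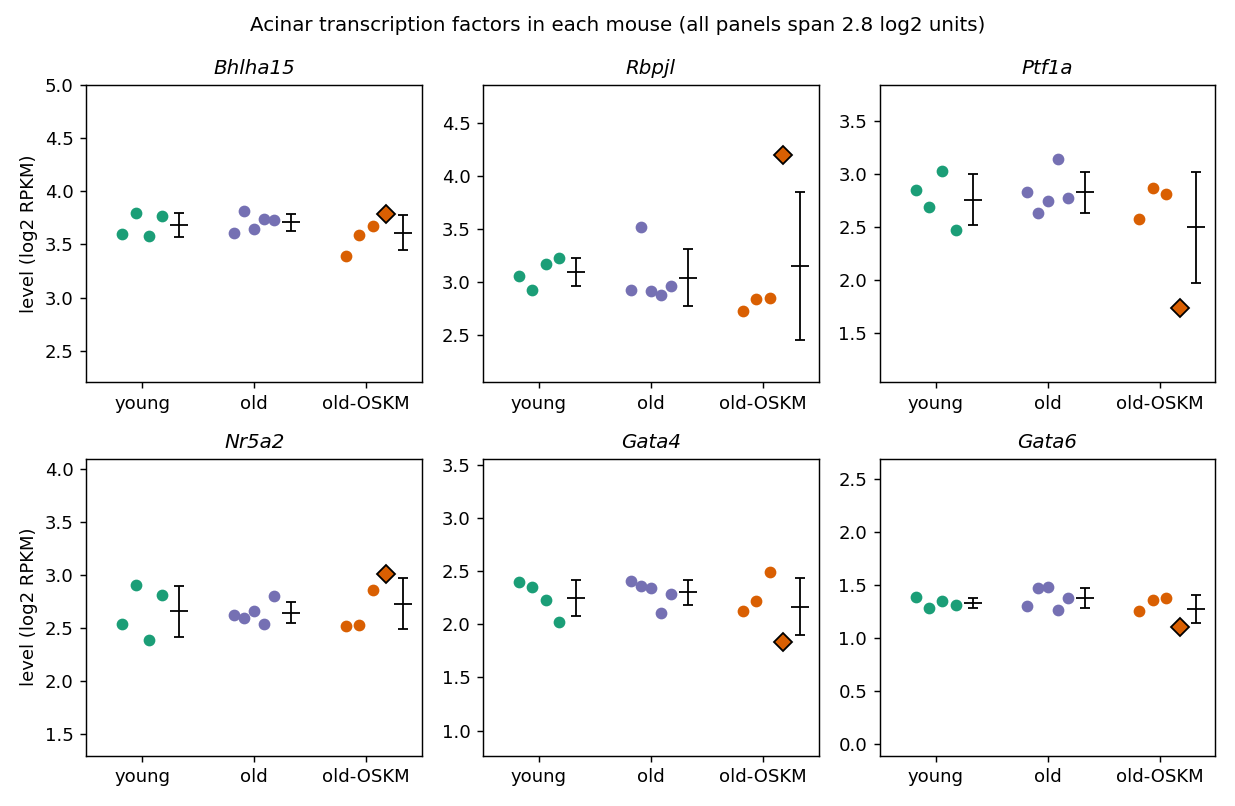
Log2 RPKM of each factor (y axis) in the 4 young, 5 old and 4 old-OSKM mice (x axis), 1 point per mouse, with the mean and SD of each group beside the points and old-OSKM mouse 4 as an outlined diamond. Groups overlap in all 6 panels, and the diamond is the highest point for Rbpjl (4.20) and the lowest for Ptf1a (1.74).

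No difference between young and old pancreas passed the test in any of the 6 factors. Their log2 differences, old minus young, ran from -0.05 for Rbpjl to 0.07 for Ptf1a. A gene counted as called when limma gave p under 0.01 before adjustment and the fold exceeded 1.5. By this rule 0 of 6 were called, beside 0.886% of all genes. At a raw p under 0.05 it was also 0 of 6, beside 5.52% of all genes. No gene of the 6 had an adjusted p under 0.05, beside 0.0813% of all genes. The counts after OSKM were the same. In old-OSKM against old mice 0 of 6 were called (background 0.753%) and 0 of 6 had a raw p under 0.05 (background 8.07%), and against young mice the counts were again 0 of 6 at both thresholds (backgrounds 0.625% and 5.07%). At an adjusted p under 0.05 there were 0 of 6 in both comparisons, beside 0.00428% and 0.0428% of all genes. Over the 18 differences the smallest adjusted p was 0.608 (limma, over all genes). The groups overlapped in all 18 differences, whereas 2.71% of all genes did not overlap between old and young mice, 1.73% between old-OSKM and old mice and 1.9% between old-OSKM and young mice. What the data bound is the size of a change. In 13 of the 18 differences, the 95% confidence interval stayed within a factor of 1.5 in either direction, and for Bhlha15, Nr5a2, Gata4 and Gata6 it did so in all 3 comparisons. For Ptf1a and Rbpjl the interval passed that factor in at least 1 comparison.

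**Figure D2:**
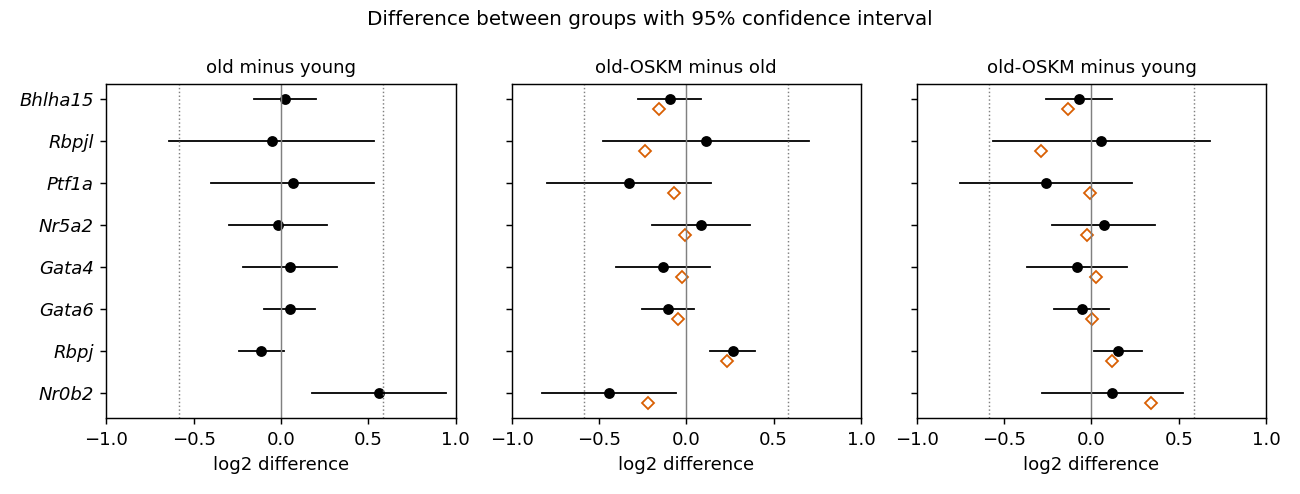
Log2 difference between groups (x axis) for the 6 factors and for Rbpj and Nr0b2 (y axis), with the limma estimate as a filled point, its 95% confidence interval as a line, the estimate without old-OSKM mouse 4 as an open diamond, and a fold change of 1.5 as dotted lines. The intervals of all 6 factors cross 0, and for Rbpjl the open diamond lies on the other side of 0 from the filled point (-0.24 against 0.11 for old-OSKM minus old).

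Ptf1a, Entrez 19213, is the helix-loop-helix subunit that gives the PTF1 complex its name. Its log2 level was 2.85, 2.69, 3.03 and 2.47 in the young mice and 2.84, 2.64, 2.75, 3.14 and 2.78 in the old mice. The old-OSKM mice had 2.58, 2.87, 2.82 and 1.74. The first 3 old-OSKM mice lay inside the range of the young mice, and mouse 4 lay below all others. Young mice averaged 2.76 ± 0.24 (SD, n = 4), old mice 2.83 ± 0.19 (SD, n = 5) and old-OSKM mice 2.50 ± 0.52 (SD, n = 4). Old minus young, Ptf1a differed by 0.07 (95% interval -0.40 to 0.53, adjusted p = 1 from limma). Old-OSKM minus old, it differed by -0.33 (95% interval -0.79 to 0.14, adjusted p = 0.608 from limma), and without mouse 4 by -0.07 (adjusted p = 0.922). Most of that estimate therefore came from 1 mouse.

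Rbpjl, Entrez 19668, encodes the pancreas-restricted DNA-binding subunit of mature PTF1. Its log2 level was 3.06, 2.93, 3.17 and 3.23 in the young mice and 2.93, 3.52, 2.92, 2.88 and 2.97 in the old mice. The old-OSKM mice had 2.73, 2.84, 2.85 and 4.20. The first 3 old-OSKM mice lay below all young and all old mice, and mouse 4 lay above them all. In mouse 4 Rbpjl thus exceeded Ptf1a by 2.46 on the log2 scale, while this difference ran from -0.27 to 0.89 in the old mice and from 0.15 to 0.76 in the young mice. The log2 difference of the group means was -0.05 between old and young mice (95% interval -0.64 to 0.53) and 0.11 between old-OSKM and old mice (95% interval -0.48 to 0.70, adjusted p = 0.846 from limma). Without mouse 4 the latter turned to -0.24 (adjusted p = 0.801 from limma), and the difference from young mice turned from 0.06 to -0.29 (adjusted p = 0.883). The sign of the OSKM difference in Rbpjl thus turned with 1 library. The annotated span of Rbpjl overlaps that of Matn4, an extracellular matrix gene, and the counting is not stated to use strand, so reads from the shared stretch cannot be assigned with certainty. Matn4 was also highest in mouse 4, at 1.84, compared with 0.72 to 1.33 in the other mice. The annotated antisense genes Ptf1aos and Gata6os likewise overlap Ptf1a and Gata6, and without strand their reads cannot be told apart.

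Among the partners of Ptf1a, Rbpj separated the old mice from both other groups. Rbpj, Entrez 19664, was at 1.68, 1.67, 1.71 and 1.76 in the young mice and at 1.58, 1.58, 1.62, 1.61 and 1.56 in the old mice. In the old-OSKM mice it was at 1.99, 1.77, 1.70 and 1.96. All 5 old mice lay below all young and all old-OSKM mice. The sizes were small. Old minus young, Rbpj differed by -0.11 (standard error 0.06, adjusted p = 0.995 from limma), and old-OSKM minus old by 0.27 (standard error 0.06, adjusted p = 0.547). The latter is a factor of 1.20 (95% interval 1.10 to 1.31). It was 0.22 to 0.32 with any 1 mouse left out and did not reach the fold change of a called gene. Both comparisons use the same old mice. Fibroblast and stellate markers were ordered alike: the old mean lay below the young mean for 7 of 7 and below the old-OSKM mean for 7 of 7. In each comparison 4 of 7 had a raw p under 0.05 in limma, beside 5.52% and 8.07% of all genes. In each, 2 of 7 were called, beside 0.886% and 0.753% of all genes. For the fibroblast and stellate markers the log2 of the summed RPKM was 4.75 to 5.75 in young and 4.33 to 4.70 in old mice. In old-OSKM mice it was 4.71 to 6.19, also without overlap of the old mice with either group. Col1a1, Col1a2 and Col3a1, genes of fibrillar collagens, did not overlap in either comparison. The order was not particular to this list. Old means lay below young and below old-OSKM means for 6 of 6 adipocyte markers. The counts were 5 of 6 and 6 of 6 for endothelial and 6 of 7 and 7 of 7 for macrophage markers. Beta cell markers went the other way, higher in old for 6 of 7 and lower in old-OSKM for 7 of 7. T cell markers were higher at both steps for 6 of 6. Rbpj was highest in old-OSKM mice 1 and 4, which held the highest marker sums of other cell types. The part of these markers in the Rbpj result was not tested. Non-overlap by itself was found in 4.1% of the 8410 expressed genes for old against young, in 2.1% for old-OSKM against old and in 2% for old-OSKM against young mice.

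Tcf12, which encodes an E protein that pairs with Ptf1a, averaged 1.99 ± 0.03 (SD, n = 4) for young mice, 2.13 ± 0.08 (SD, n = 5) for old mice and 2.04 ± 0.08 (SD, n = 4) for old-OSKM mice. Its old and young mice did not overlap, with the nearest at 2.039 (old) and 2.034 (young), and differed by 0.14 (adjusted p = 0.739 from limma). Tcf3, the gene of the E proteins E12 and E47, was at 1.03 ± 0.12 (SD, n = 4), 0.95 ± 0.21 (SD, n = 5) and 1.09 ± 0.26 (SD, n = 4), with overlap in all comparisons. Of the 8 genes listed as partners and E protein inhibitors, 0 were called in any comparison, and at a raw p under 0.05 there was 1 in each, Tcf12 between old and young mice and Rbpj in the other 2. Among the inhibitors, Id4, at -4.26 to -1.04 in all mice, differed by 0.61 for old-OSKM minus young (adjusted p = 0.706 from limma), but by 0.02 without young mouse 2, its lowest, and by 1.09 without young mouse 1, its highest. Within each mouse Rbpjl exceeded Rbpj, by 1.39 ± 0.10 (SD, n = 4) for young mice, 1.45 ± 0.28 (SD, n = 5) for old mice and by 0.73 to 2.24 in the old-OSKM mice. The widest of these ranges was that of the old-OSKM mice, with mouse 1 at its lower and mouse 4 at its upper end.

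**Figure D3:**
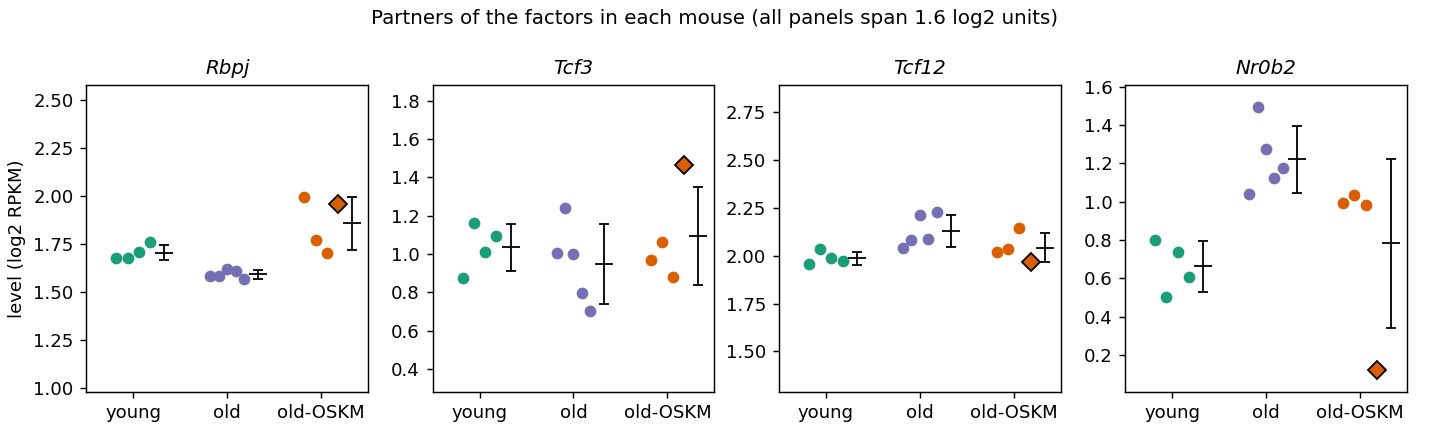
Log2 RPKM (y axis) of Rbpj, Tcf3, Tcf12 and Nr0b2 in the young, old and old-OSKM mice (x axis), 1 point per mouse, with mean and SD and old-OSKM mouse 4 as an outlined diamond. The old mice lie below both other groups for Rbpj (1.56 to 1.62) and above both for Nr0b2 (1.04 to 1.5), without overlap. For Nr0b2 the nearest old and old-OSKM mice are at 1.042 and 1.034.

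Bhlha15, Entrez 17341, the helix-loop-helix regulator of the secretory apparatus, was the most highly expressed and among the steadiest of the factors. Its log2 level was 3.59, 3.79, 3.58 and 3.77 in the young mice and 3.61, 3.81, 3.64, 3.74 and 3.73 in the old mice. The treated group read 3.39, 3.59, 3.68 and 3.79. Only mouse 1 of the old-OSKM group left the range of the untreated mice, on the low side. The log2 difference was 0.02 between old and young mice (95% interval -0.16 to 0.20) and -0.10 between old-OSKM and old mice (95% interval -0.27 to 0.08, adjusted p = 0.617 from limma). Expressed as a fold, the second interval runs from 0.827 to 1.06. Without mouse 1 this difference was -0.02, and without mouse 4 it was -0.15. Xbp1, a transcription factor of the unfolded protein response that acts upstream of Bhlha15, ran from 4.81 to 5.02 over the young, from 4.96 to 5.06 over the old and from 4.83 to 5.10 over the old-OSKM mice, with overlap in all comparisons.

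Of the 10 secretory genes listed as downstream of Bhlha15, 0 were called and 0 had a raw p under 0.05 in any of the 3 comparisons (limma). Their median log2 difference was -0.02 between old and young mice and -0.09 between old-OSKM and old mice, where the medians over all genes were 0.00 and -0.04. The second median turned to 0.011 without old-OSKM mouse 4, and the first turned to as much as 0.0092 when 1 mouse was left out (young mouse 1). Atp2c2, a calcium and manganese pump of the Golgi, differed by -0.33 for old-OSKM minus old (adjusted p = 0.606), and Copz2, a coat protein subunit, by -0.18 (adjusted p = 0.608). Without old-OSKM mouse 4 these differences were -0.11 and -0.06. Between old and young mice the smallest p-values belonged to Rab27b, a small GTPase of exocytosis, with a difference of 0.25 (adjusted p = 1), and Gp2, the main protein of the zymogen granule membrane, with 0.12 (adjusted p = 1). In old-OSKM mouse 4, 7 of the 10 were the lowest of all mice, beside 3042 of the 8410 expressed genes. Gjb1, the gap junction protein connexin 32, chosen like Itpr3 and Nupr1 after the values were seen, was at 1.96 there and between 2.70 and 3.09 in all other mice. Atp2c2 was at -0.05 there and between 0.63 and 1.10 elsewhere. Itpr3 and Nupr1 were instead the highest of all mice in mouse 4, as was Rbpjl. The level of Bhlha15 itself in this mouse, 3.79, was within the range of the young and old mice.

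**Figure D4:**
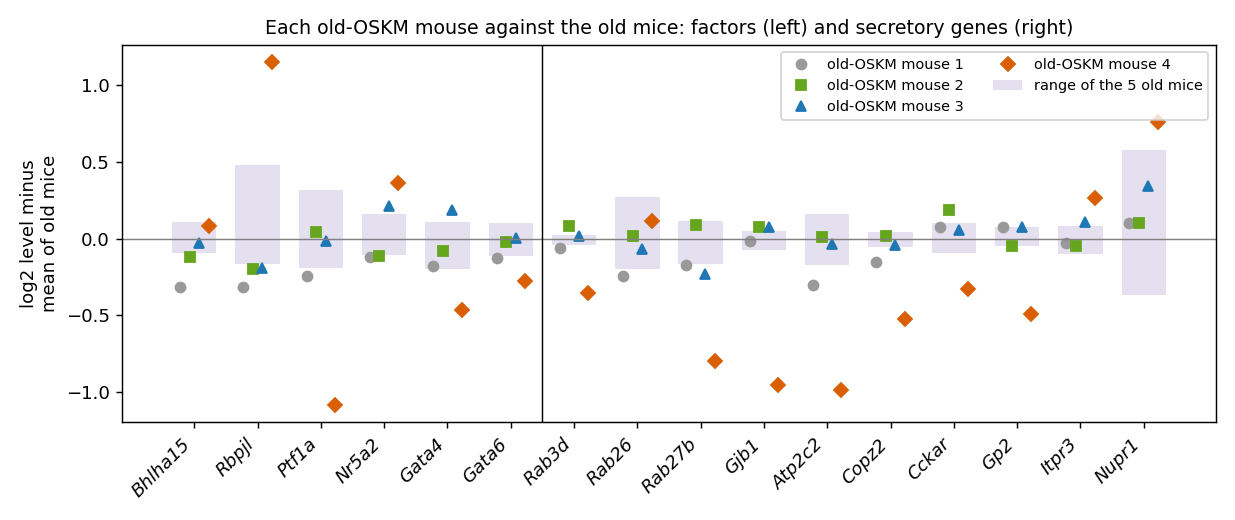
Log2 level of each of the 4 old-OSKM mice minus the mean of the old mice (y axis) for the 6 factors and the 10 secretory genes (x axis), with the range of the 5 old mice as a pale bar. Mouse 4 leaves the bar in 14 of the 16 genes, upwards for Rbpjl, Nr5a2, Itpr3 and Nupr1 and downwards for the other 10. This library held the highest or lowest value of all 13 mice in 60.1% of the 8410 expressed genes.

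Nr5a2, Entrez 26424, had log2 levels of 2.54, 2.91, 2.38 and 2.81 in the young mice and 2.62, 2.60, 2.66, 2.54 and 2.81 in the old mice. In the old-OSKM mice they were 2.52, 2.53, 2.86 and 3.01. The old mice spanned the narrowest range, and mouse 4 of the old-OSKM group lay above all others. The log2 difference was -0.02 between old and young mice (95% interval -0.30 to 0.26) and 0.09 between old-OSKM and old mice (95% interval -0.19 to 0.37, adjusted p = 0.733 from limma). Without mouse 4 the second difference was -0.01.

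Nr0b2, Entrez 23957, encodes the small heterodimer partner, a nuclear receptor without a DNA-binding domain that represses Nr5a2. It had the smallest p of the 17 other exocrine and endoderm transcription factors between old and young mice. Its log2 level was 0.80, 0.51, 0.74 and 0.61 in the young mice and 1.04, 1.5, 1.27, 1.12 and 1.18 in the old mice. After OSKM it was 0.99, 1.03, 0.98 and 0.12. All old mice lay above all young mice and above all old-OSKM mice, and 3 of the 4 old-OSKM mice lay between both untreated groups. The gap to the old-OSKM mice was thin, with the nearest mice at 1.042 (old) and 1.034 (old-OSKM). Of the expressed genes, 4.1% did not overlap between old and young and 2.1% between old-OSKM and old mice. Old minus young, Nr0b2 differed by 0.56 (standard error 0.18, adjusted p = 0.594 from limma), a factor of 1.47 (95% interval 1.13 to 1.92), just under the fold change of a called gene. Old-OSKM minus old, it differed by -0.44 (adjusted p = 0.547 from limma), and by -0.22 without mouse 4 (adjusted p = 0.795). Old-OSKM minus young, it differed by 0.12, and by 0.34 without mouse 4 (adjusted p = 0.601). As with Rbpj, neither difference held after adjustment over all genes in the fit of all mice, and both use the same old mice. With any 1 mouse left out, Nr0b2 differed by 0.49 to 0.61 for old minus young. The smallest raw p of those fits was 9.6e-05 (limma), and Nr0b2 was called in 1 of them.

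Gata4, Entrez 14463, was at 2.40, 2.35, 2.23 and 2.02 in the young mice and at 2.41, 2.36, 2.34, 2.10 and 2.29 in the old mice. After OSKM it was at 2.12, 2.22, 2.49 and 1.84, so that this group held both the highest and the lowest mouse. The log2 difference was 0.05 between old and young mice (95% interval -0.22 to 0.32) and -0.13 between old-OSKM and old mice (95% interval -0.40 to 0.14, adjusted p = 0.63 from limma), or -0.02 without mouse 4. Gata6, Entrez 14465, its paralog with an overlapping role in the pancreas, was at 1.39, 1.28, 1.35 and 1.31 in the young mice and at 1.31, 1.47, 1.48, 1.27 and 1.38 in the old mice. In the old-OSKM mice it was at 1.26, 1.36, 1.38 and 1.10. Its within-group SD, 0.10, was the smallest of the 6 factors and at percentile 16.0 of the expressed genes, whereas Rbpjl (0.42) and Ptf1a (0.34) lay at percentiles 96.0 and 91.8. By group, the SDs in young, old and old-OSKM mice were 0.14, 0.27 and 0.70 for Rbpjl. For Ptf1a they were 0.24, 0.19 and 0.52, and both old-OSKM values include mouse 4. The log2 difference of Gata6 was 0.05 between old and young mice (95% interval -0.10 to 0.20) and -0.11 between old-OSKM and old mice (95% interval -0.25 to 0.04, adjusted p = 0.608 from limma), or -0.05 without mouse 4.

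Across the other exocrine and endoderm factors, 0 of 17 were called in any comparison, and a raw p under 0.05 was reached by Nr0b2 and Hnf4a between old and young mice, by Nr0b2 and Prox1 between old-OSKM and old mice and by none between old-OSKM and young mice. Hnf4a, a nuclear receptor of endoderm, differed by 0.30 for old minus young (adjusted p = 0.856 from limma), with overlap. Prox1, a homeobox factor of pancreatic progenitors, differed by 0.40 for old-OSKM minus old (adjusted p = 0.547), and by 0.25 without old-OSKM mouse 4 (adjusted p = 0.801). Between old-OSKM and young mice, Prox1 (0.28) and Meis1 (0.26), another homeobox gene, had the smallest p-values, both with overlap, and without old-OSKM mouse 4 their differences were 0.13 and 0.08. Onecut1, a progenitor and duct factor chosen here after its values were seen, was lower in each old mouse (0.76 to 1.04) than in each young mouse (1.12 to 1.30) and reached 2.05 in old-OSKM mouse 4. Its log2 difference between old and young mice was -0.26 (adjusted p = 1 from limma). Over the fits with 1 mouse left out its smallest raw p was 0.0070 (limma), and it was called in none.

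Of the 8 genes listed for Notch signaling, 0 were called, and a raw p under 0.05 was reached by Notch1 between old and young mice, by Notch2 between old-OSKM and old mice and by none in the remaining comparison (limma). Notch1 differed by 0.17 for old minus young (adjusted p = 0.855 from limma) and did not overlap, with the nearest mice at 1.049 (old) and 1.044 (young). Notch2, the receptor of exocrine progenitors, differed by 0.39 for old-OSKM minus old (adjusted p = 0.547), also without overlap, at 0.91, 0.43, 0.51 and 1.10 in the old-OSKM mice and 0.28 to 0.42 in the old mice. Old-OSKM mice 1 and 4, which held the highest marker sums of other cell types, were the highest of these. Notch3 differed by 0.30 in the same comparison (adjusted p = 0.608), and by 0.10 without old-OSKM mouse 4. Jag2 differed by -0.29 for old-OSKM minus young (adjusted p = 0.706), by -0.17 without old-OSKM mouse 1 and by -0.44 without mouse 4.

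The enzyme genes that PTF1 and Nr5a2 activate were at the top of the table, and there the quantile normalization leaves little but their rank. Of 19 listed enzyme and secreted protein genes, 3 (Ctrb1, Cela2a and Amy2a5) had the same value in all 13 mice to within 0.001, so these genes cannot show a change. Of the 19, 0 were called, and a raw p under 0.05 was reached by 3 between old and young mice, 0 between old-OSKM and old mice and 3 between old-OSKM and young mice (limma). Pnlip, pancreatic lipase, was at 10.62 in all 4 young mice, at 10.24 to 10.42 in old mice and at 10.38 to 10.42 in old-OSKM mice, with log2 differences of -0.26 (adjusted p = 0.0923) and -0.21 (adjusted p = 0.487) from young mice. Prss2, a trypsinogen, differed by 0.21 between old and young mice (adjusted p = 0.322). Ctrl, a chymotrypsin-like protease, differed by -0.17 in that comparison (adjusted p = 0.392) and by -0.14 between old-OSKM and young mice (adjusted p = 0.706). These steps of rank went in both directions. Between old-OSKM and old mice the smallest p-values were those of Cela3b (log2 difference -0.11, adjusted p = 0.547, and -0.06 without old-OSKM mouse 4) and Cpa1 (-0.10, adjusted p = 0.608).

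Over the 62 network genes other than the factors, 0 were called in any comparison, and 7 (old against young), 4 (old-OSKM against old) and 4 (old-OSKM against young) had a raw p under 0.05 in limma. Of all genes, 5.52%, 8.07% and 5.07% had such a p in these comparisons, and 0.886%, 0.753% and 0.625% were called. The counts of each list above stand beside the same shares.

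Over the 13 mice, Gata4 and Gata6 were the most alike pair by Pearson r (r = 0.74, Spearman rho = 0.60, r = 0.51 without old-OSKM mouse 4), followed by Bhlha15 and Nr5a2 (r = 0.62, rho = 0.71), with r = 0.57 without that mouse. Ptf1a and Rbpjl, subunits of 1 complex, had r = -0.79 over the 13 mice, but r = -0.24 over the 12 mice without mouse 4 and rho = -0.35 over all 13, so that the opposed pattern rests on that mouse. Ptf1a and Nr5a2 had r = -0.67, and -0.48 without mouse 4. The mice share the same normalization and 3 conditions, so these are descriptions of 13 libraries.

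Among the 8394 other expressed genes with a symbol, those with the pattern most like each factor over the 13 mice were named by Pearson r. For Ptf1a they were Gpr180, Clpb and Cop1 (r = 0.97, 0.96 and 0.96), and the most opposed was Pkhd1 (r = -0.96), a gene of cilia in duct epithelium. For Rbpjl they were Fam193b, Firre and Srsf6 (r = 0.98, 0.97 and 0.97), the second a long non-coding RNA held in the nucleus and the third a splicing factor. For Bhlha15 they were Rgl2, Metap1d and Slc25a28 (r = 0.92, 0.91 and 0.90), with Itgav, an integrin subunit, most opposed (r = -0.94). For Nr5a2 they were Nr1d1, Jade1 and Itpr3 (r = 0.90, 0.89 and 0.89), the first being the circadian repressor Rev-erb alpha, with Pbdc1 most opposed (r = -0.90). For Gata4 they were Klhdc10, Ttyh2 and Acd (r = 0.94, 0.94 and 0.93), with Ifi205 most opposed (r = -0.93), and for Gata6 Slc24a3, Qsox2 and Haus7 (r = 0.90, 0.90 and 0.89), with Calcrl, a receptor of endothelium, most opposed (r = -0.91). Without mouse 4 the r of each pair named here kept its sign and was 0.77 to 0.95 in size. The pairs were picked as the most extreme of 8394 genes over these same mice. Large values of r follow from that choice, with or without mouse 4, and are no evidence of a link.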

How the data were processed

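RNA was extracted from the pancreas of 13 mice, depleted of rRNA and sequenced with paired ends, 1 library per mouse. Per the labels and the study's methods, the authors aligned reads to mm10 with STAR 2.3.0e, left out reads with many mapping places, estimated RPKM with Casper, brought it to the level of Entrez genes and quantile normalized the log2 values. The deposited log2 RPKM values were used as they are. The correction by read totals that the methods describe is not part of them as far as the values show, and no totals or counts were given, so depth and counting error are unknown. Symbols came from RefSeq (GRCm38.p6) for 23273 of 23366 genes.

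All genes and the 3 groups were fitted together with limma 3.58.1 in R 4.3.3 (no covariate), and p-values were adjusted by Benjamini-Hochberg over all 23366 genes. The thresholds for called genes are those the study gives for its differentially expressed genes, which it applied after the correction by read totals. limma offset the variance of genes that did not vary from 0. The p-values measure the spread between mice. The fit was tested on simulated data. The factors, lists and tests were chosen with earlier results of these data known. Named were the 6 factors, Rbpj, Tcf3, Tcf12 and Xbp1, in each network list called genes or else the 2 of smallest p per comparison, and genes of most similar pattern (mean log2 level above 0). Outside this rule, Gjb1, Itpr3, Nupr1 and Onecut1, and the collagen and overlapping genes, were named after their values were seen. Lists of network genes (partners, exocrine factors, Notch, enzymes, secretory) and of cell type markers were written by hand, and Ighm and Trac of the markers were not in the table. The gene most opposed to Rbpjl is not reported here. Plots used matplotlib 3.10.9 (Python 3.11.15). Alternatives are given at the end.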

Additional observations from a re-analysis of the deposited data

Results flagged for a closer look

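Within groups of 4 or 5 mice, the gap of the farthest mouse from its nearest neighbor was compared with Dixon's 95% critical value for 8 genes (the factors, Rbpj and Nr0b2) in 3 groups, 24 tests, of which chance flags about 1 in 20. In 3 of the 24 a mouse stood apart. Rbpjl was at 3.52 in old mouse 2, where the other old mice were at 2.88 to 2.97. Rbpjl was at 4.20 in old-OSKM mouse 4, and Nr0b2 was at 0.12 in the same mouse, the library that held an extreme in 60.1% of expressed genes. In old mouse 2 that share was 8.76%.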

How the results depend on the processing

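The 6 factors and the 62 network genes were recomputed with the normalization repeated, centring on the median, pseudocounts of 1 and 0.1, a filter on low values, 2 groups alone, eBayes with a trend and robust, a covariate for the run of identifiers, other thresholds and each mouse left out. In 396 values for the factors, 0 met the definition of a called gene. Several of these alternatives could hardly move a difference. The largest median shift of a mouse was 0 with the normalization repeated and 0.0078 with centring. The filter, 2 groups alone and the eBayes settings leave each difference as it is and change only its p-value. So does leaving out a mouse of the group not compared. With 1 mouse left out, 0 of 6 factors were called in every comparison, and the network genes called numbered 0 to 1 between old and young mice (Nr0b2, without old mouse 1) and 0 in the other 2 comparisons. A raw p under 0.05 as the only threshold was met by 7 network genes between old and young mice and by 4 in each of the other comparisons.

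Differences near 0 changed sign with the mice used, 24 of the 396 values, all of them with 1 or 2 mice left out. Over the fits with 1 mouse left out, old minus young ran from -0.030 to 0.15 for Ptf1a, from -0.011 to 0.058 for Bhlha15, from -0.11 to 0.066 for Nr5a2 and from -0.024 to 0.10 for Gata4. Old-OSKM minus old ran from -0.24 to 0.25 for Rbpjl and from -0.0066 to 0.16 for Nr5a2. Old-OSKM minus young ran from -0.29 to 0.20 for Rbpjl, from -0.023 to 0.15 for Nr5a2, from -0.19 to 0.029 for Gata4 and from -0.092 to 0.0010 for Gata6. With old-OSKM mice 1 and 4 both left out, an alternative chosen after seeing the data, old-OSKM minus old was 0.014 for Ptf1a, -0.20 for Rbpjl and 0.054 for Gata4, and old-OSKM minus young was 0.080 for Ptf1a, -0.25 for Rbpjl, 0.11 for Gata4 and 0.040 for Gata6, none of them called. These signs follow from which mice enter. Each group difference printed for a network gene was also refitted with each mouse left out and kept its sign. This was added after seeing the data, except for Rbpj and Nr0b2. Most of these genes were named for small p-values in the same mice. Kept signs were therefore likely beforehand and lend the differences no separate support. The signs for Tcf3, Xbp1, Gjb1, Itpr3 and Nupr1 were not examined this way. The median of the 10 secretory genes ran from -0.025 to 0.0092 for old minus young and from -0.13 to 0.011 for old-OSKM minus old. No paired analysis was possible because the labels give mice no shared replicate numbers. Depth is unknown, and 4 or 5 mice per group bound changes in Ptf1a and Rbpjl less closely than in the other factors. The shared spread behind these bounds, also between old and young mice, includes old-OSKM mouse 4.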
